A study of Mus musculus with 4 samples.

Results

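*Hr*, *P2rx7*, *Tspan32* and *Pgf* are 4 mouse genes whose accessible chromatin differed between cortex and hippocampus in earlier sums of these data, and they were listed for that difference, out of 21951 protein-coding genes of GENCODE release M21, of which 14645 had enough cut sites to be tested. *Hr* and *P2rx7* leaned to cortex, and *Tspan32* and *Pgf* leaned to hippocampus. The tissue difference itself is therefore described here with its values and with no test. The questions asked were which peaks of each gene carried the difference, and in which nuclei it lay.

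The nuclei came from the cortex and the hippocampus of mice of genotype Dlx6aCre;Sun1/sfGFP at postnatal day 30, with 2 libraries for each tissue. Dlx6aCre drives Cre recombinase in inhibitory neurons of the forebrain and in their precursors, and Sun1/sfGFP then marks the envelope of the nucleus, so that all 4 libraries carried both alleles and held sorted nuclei positive for DAPI and GFP. The labels do not say how many animals entered a library, so the spread between libraries of a tissue may be technical. Single-nucleus ATAC-seq, in which the transposase Tn5 cuts and tags open chromatin, was used to count cut sites in the peaks of each library.

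Cortical and hippocampal interneurons arise largely from the medial (MGE) and caudal (CGE) ganglionic eminences of the embryonic brain. *Lhx6*, a transcription factor, marks MGE-derived cells, which include those expressing *Pvalb* (parvalbumin) or *Sst* (somatostatin). *Adarb2* marks CGE-derived cells, among which are cells expressing *Vip* or *Lamp5*. *Hr* encodes hairless, a nuclear corepressor of the thyroid hormone receptor and a gene that responds to thyroid hormone in the brain. *P2rx7* encodes a cation channel opened by extracellular ATP, *Tspan32* a tetraspanin of the cell membrane, and *Pgf* placental growth factor, a ligand of the VEGF family that binds the receptor encoded by *Flt1*.

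The libraries held 2355 and 4191 nuclei (cortex replicates 1 and 2) and 5576 and 3184 nuclei (hippocampus replicates 1 and 2), with a median of 47236, 7352, 12686 and 14917 cut sites per nucleus, so cortex replicate 2 was the shallowest and had the fewest and narrowest peaks. Between 11 and 47 barcodes were shared by any pair of libraries. Each library had its own set of peaks, and values are given for the 46698 common regions, merged intervals with a peak of every library. A gene's level is the sum over common regions that overlap the gene or the 2 kb before it, as cut sites per 1000000 in common regions after TMM scaling (normalised CPM).

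The 4 genes held 8 common regions, which are numbered along the chromosome in GRCm38 coordinates. *Hr* (ENSMUSG00000022096, chr14:70552212-70573548, plus strand) had 1 region, chr14:70550622-70555688, which spans its start. *P2rx7* (ENSMUSG00000029468, chr5:122643911-122691432, plus strand) had region 1 at its start, chr5:122643883-122644583, and region 2, chr5:122652279-122654712, centred 9584 bp into the gene, where a coding exon lies among intron sequence. *Tspan32* (ENSMUSG00000000244, chr7:143005046-143019644, plus strand) had region 1, chr7:143007767-143009338, region 2, chr7:143012149-143014270, and region 3, chr7:143015959-143017251, all inside the gene. *Pgf* (ENSMUSG00000004791, chr12:85166635-85177790, minus strand) had region 1, chr12:85169187-85169918, inside the gene over a coding exon and the start of a shorter transcript, and region 2, chr12:85173901-85178229, which spans the gene's start and part of its body.

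For each gene the central 300 bases of the common region with the largest tissue difference are printed, to show the sequence that the results turn on, read from GRCm38 (RefSeq assembly) on the plus strand, 5′ to 3′. The windows are chr14:70553005-70553304 for *Hr*, chr5:122653346-122653645 for *P2rx7*, chr7:143013060-143013359 for *Tspan32* and chr12:85175915-85176214 for *Pgf*. Capitals mark matches, on either strand, to 9 motifs: AGGTCA (a nuclear receptor half-site), TAATTA (homeodomain), TGACTCA (AP-1), TGACGTCA (cAMP response element), CAGCTG and CAGATG (E-boxes), the NFI palindrome, CCACCAGGG (CTCF core) and GGGCGG (GC box).
Hr: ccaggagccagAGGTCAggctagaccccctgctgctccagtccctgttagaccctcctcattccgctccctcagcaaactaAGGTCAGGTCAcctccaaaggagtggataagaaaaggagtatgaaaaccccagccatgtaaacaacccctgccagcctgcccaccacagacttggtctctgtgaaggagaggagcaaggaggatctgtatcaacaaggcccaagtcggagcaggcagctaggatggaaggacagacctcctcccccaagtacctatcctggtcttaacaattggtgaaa
P2rx7: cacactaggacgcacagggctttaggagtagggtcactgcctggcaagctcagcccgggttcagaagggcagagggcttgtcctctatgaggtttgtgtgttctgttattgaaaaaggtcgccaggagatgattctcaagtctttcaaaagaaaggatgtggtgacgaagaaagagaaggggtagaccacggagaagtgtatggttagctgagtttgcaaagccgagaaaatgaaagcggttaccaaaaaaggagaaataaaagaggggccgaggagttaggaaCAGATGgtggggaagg
Tspan32: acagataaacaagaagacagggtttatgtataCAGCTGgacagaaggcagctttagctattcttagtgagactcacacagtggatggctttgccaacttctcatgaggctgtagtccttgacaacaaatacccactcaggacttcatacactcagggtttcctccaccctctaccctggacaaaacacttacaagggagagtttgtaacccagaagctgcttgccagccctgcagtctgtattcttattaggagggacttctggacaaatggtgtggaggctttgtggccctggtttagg
Pgf: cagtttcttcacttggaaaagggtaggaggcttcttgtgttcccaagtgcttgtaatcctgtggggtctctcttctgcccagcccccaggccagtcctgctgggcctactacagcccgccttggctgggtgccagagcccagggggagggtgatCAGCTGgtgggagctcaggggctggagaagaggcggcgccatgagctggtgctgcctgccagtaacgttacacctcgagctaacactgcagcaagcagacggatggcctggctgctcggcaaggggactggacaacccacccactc
The *Hr* window held 3 matches to AGGTCA, at positions 12, 82 and 87 counted from its first base, and the last 2 overlap by 1 base. At least 1 AGGTCA was present in 13.9% of the central windows of all 46698 common regions. The *P2rx7* window held 1 CAGATG, found in 26.1% of all windows. The *Tspan32* and *Pgf* windows each held 1 CAGCTG, found in 27.5% of all windows. The other 6 motifs had no match in any of the 4 windows. None of the windows overlapped a UTR, and only that of *Pgf* overlapped an exon, in a transcript annotated as a retained intron.

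The windows already separate the genes by how the peaks of the 4 libraries lie. All 300 bases of the *P2rx7* window were inside a peak in each library. The *Pgf* window lay wholly inside a peak in both hippocampus libraries and in no cortex peak. In the *Tspan32* window 300 and 142 bases lay in peaks of hippocampus replicates 1 and 2, against 3 and 0 bases in the cortex libraries. The *Hr* window was inside a peak in both cortex libraries and in hippocampus replicate 1, and fell in the gap between a pair of peaks in hippocampus replicate 2.

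*Hr* was higher in the cortex libraries, at 64.9 and 61.7 normalised CPM (cortex replicates 1 and 2), than in the hippocampus libraries, at 30.6 and 30.9. The tissue means were 63.3 ± 2.24 in cortex and 30.8 ± 0.145 in hippocampus (SD, n = 2 each), 2.06-fold apart. The sum is of the single common region, over the start of the gene. A region at the 3′ end of the gene, chr14:70571909-70573210, lacked a peak in hippocampus replicate 2 and is not in the sum, with 7.35 and 8.77 CPM in cortex and 8.87 in hippocampus replicate 1. The peaks over the start covered 5067, 2889, 3360 and 2915 bp in the order cortex replicates 1 and 2, hippocampus replicates 1 and 2, so that cortex replicate 2 and hippocampus replicate 2 covered nearly the same length, with 61.7 against 30.9 CPM. Its density was 12.8 and 21.4 CPM per covered kb in cortex and 9.12 and 10.6 in hippocampus. Median density over all common regions was 13.4, 24.2, 15.7 and 15.9 CPM per covered kb in the same order of libraries.

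*P2rx7* stood at 46.7 and 39.4 CPM in cortex and at 21.7 and 17.3 in hippocampus. The means were 43.0 ± 5.16 and 19.5 ± 3.06 (SD, n = 2 each), 2.21-fold apart. Region 2, over the coding exon, carried 92.8% of that difference, with 39.2 and 36.3 CPM in cortex and 18.7 and 13.2 in hippocampus. Its peaks covered 2434, 1589, 1658 and 966 bp in the order above, and cortex replicate 2 and hippocampus replicate 1, with close covered lengths, had 36.3 and 18.7 CPM. Region 1, at the start of the gene, had 7.49 and 3.08 CPM in cortex and 3.00 and 4.18 in hippocampus, so the tissues overlapped there. Of the 4 further regions with no peak in at least 1 library, 1 had a peak in both cortex libraries and in neither hippocampus library, an intronic site at chr5:122649233-122649747 with 6.01 and 7.002 CPM.

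*Tspan32* had 31.7 and 30.7 CPM in cortex and 59.5 and 60.0 in hippocampus, with means of 31.2 ± 0.741 and 59.7 ± 0.353 (SD, n = 2 each) and a ratio of 1.91. Its 3 common regions took 17.8%, 48.3% and 33.9% of the difference. Region 2 had 12.5 and 11.1 CPM in cortex and 29.0 and 22.1 in hippocampus, and region 3 had 5.00 and 5.33 against 11.98 and 17.7. The hippocampus peaks were longer: in region 2 they covered 2122 and 1514 bp, against 1159 and 457 bp in cortex, and in region 3 they covered 727 and 1293 bp, against 509 and 247 bp. Density in region 2 was 10.8 and 24.2 CPM per covered kb in cortex and 13.7 and 14.6 in hippocampus, which overlap. Hippocampus replicate 1 alone had a peak over the start of the gene, at 7.38 CPM.

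*Pgf* had 23.0 and 26.0 CPM in cortex and 48.8 and 47.3 in hippocampus, with means of 24.5 ± 2.16 and 48.1 ± 1.01 (SD, n = 2 each) and a ratio of 1.96. The 2 common regions went opposite ways. Region 2, spanning the gene's start, had 10.5 and 14.04 CPM in cortex and 40.7 and 36.1 in hippocampus, and region 1 had 12.5 and 12.01 in cortex and 8.03 and 11.3 in hippocampus. In region 2 the hippocampus libraries had 2 peaks each, covering 3809 and 3424 bp, whereas the cortex libraries had 2 and 3 separate narrower peaks covering 1130 and 774 bp. Density there was 9.26 and 18.1 CPM per covered kb in cortex and 10.7 and 10.5 in hippocampus. Within peaks the tissues thus overlapped in density, and the hippocampal peaks of *Pgf* were the longer ones.

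**Figure D1:**
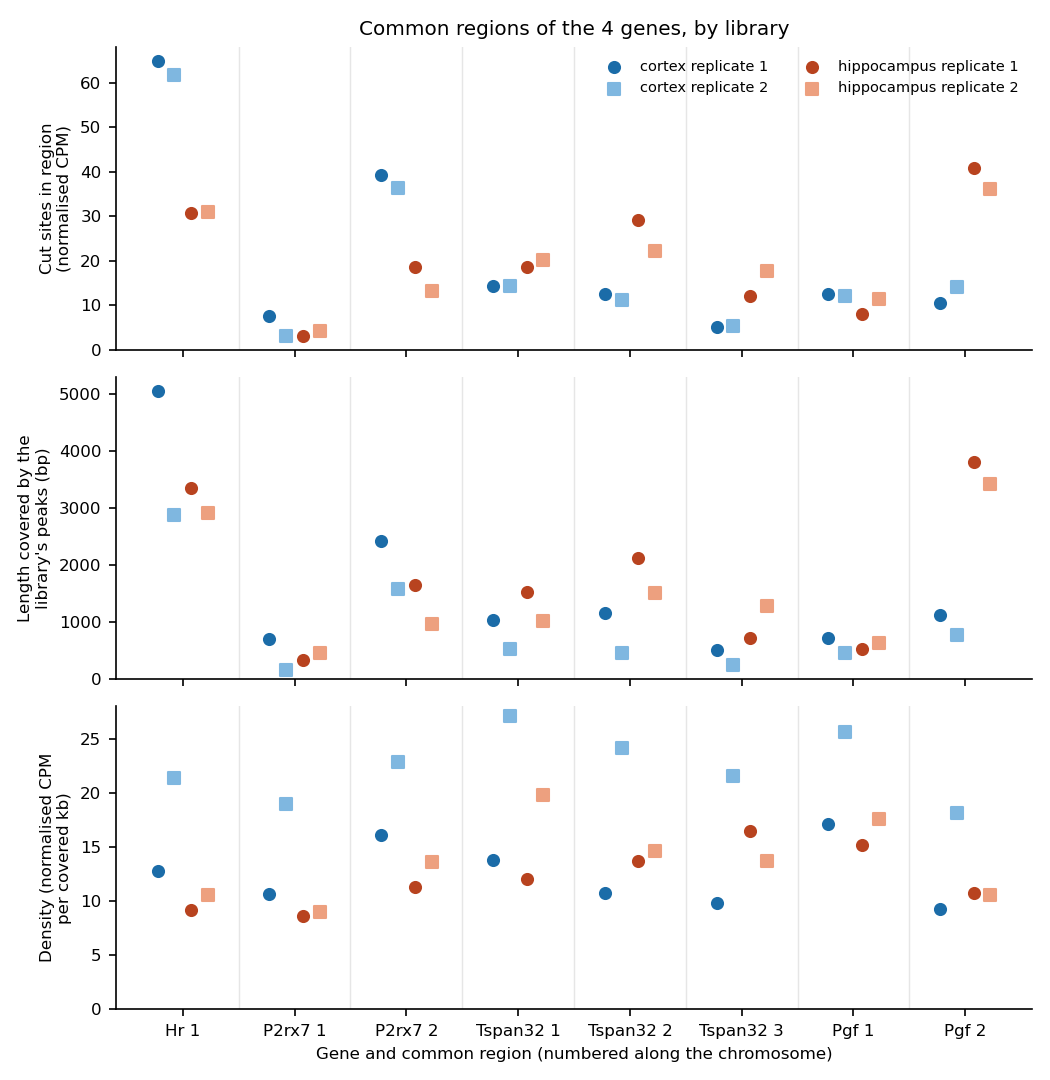
Each column is a common region of a gene, and each point is a library (blue, cortex; orange, hippocampus; circle, replicate 1; square, replicate 2). The panels show cut sites in normalised CPM, the length covered by that library's peaks in bp, and their ratio in CPM per covered kb. Pgf region 2 reaches 40.7 CPM in hippocampus over 3809 bp of peak, and its density of 10.7 lies between the cortex values of 9.26 and 18.1.

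In the fit over all genes (edgeR, quasi-likelihood test), the log2 difference of hippocampus over cortex was -1.04 ± 0.16 (SE) for *Hr*, -1.14 ± 0.20 for *P2rx7*, 0.94 ± 0.15 for *Tspan32* and 0.97 ± 0.16 for *Pgf*. This fit called 0.0% of the 14645 genes between the tissues at an adjusted p of 0.05, DESeq2 called 21, 513 had an unadjusted p below 0.05 in edgeR, and the 4 genes were chosen on this contrast. The libraries of the tissues did not overlap for 26.7% of the tested genes. With the covered length of each library's peaks as an offset, the differences of the cortex-leaning genes were -0.79 for *Hr* and -0.71 for *P2rx7*, whereas those of *Tspan32* and *Pgf* changed sign, to -0.32 and -0.54. That offset moved the median of all genes to -0.27, from -0.01 without it, and *Tspan32* was then near the median gene. Common regions at least 50% covered by each library's peaks remained for *Hr* (log2 difference -1.0004) and *Pgf* (-0.31, from region 1), and for neither *P2rx7* nor *Tspan32*.

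Genes within 100 kb of the 4 did not share the size of their tissue difference. The 4 were chosen for that difference and the neighbours were not, so smaller values in neighbours are no test. Of 28 neighbours, 27 were tested, and no log2 difference of theirs between the tissues exceeded 0.41 in size, that of *Camkk2* (-0.41 ± 0.20 SE), a kinase gene 39738 bp from *P2rx7*. *Bmp1* and *Sftpc* had identical values, as had *Trpm5* and *Tssc4*, so the neighbours are not all separate measurements. *Reep4*, the nearest gene upstream of *Hr*, stood at -0.04 ± 0.33, *P2rx4*, another ATP-gated channel gene 16112 bp from *P2rx7*, at -0.13 ± 0.19, *Cd81*, a tetraspanin gene 33095 bp from *Tspan32*, at 0.11 ± 0.19, and *Rps6kl1*, the nearest neighbour of *Pgf*, at 0.21 ± 0.22.

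To ask in which nuclei the difference lay, each nucleus was put in a gate by its cut sites in *Lhx6*, *Pvalb* and *Sst* against those in *Adarb2*, *Vip* and *Lamp5*, each relative to what its depth gave. Nuclei with more cut sites at 9 oligodendrocyte-lineage genes than at 8 genes of GABAergic neurons, relative to depth, were first put in an oligodendrocyte-lineage gate. This gave 4512 nuclei in the MGE gate, 4138 in the CGE gate, 1899 in the oligodendrocyte-lineage gate and 4757 with mixed or no evidence. The MGE gate was divided by *Pvalb* against *Sst* (1519 and 868 nuclei), and the CGE gate by *Vip* against *Lamp5* (161 and 1058 nuclei). *Vip* had no peak in either hippocampus library, so the Vip gate held nuclei of cortex only.

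The gates are ranges of a count, not cell types. In cortex replicate 2, 56.7% of nuclei had no cut site in any of the 6 genes, against 3.69% in cortex replicate 1 and 20.2% and 25.7% in hippocampus, and 49.7% of its nuclei were mixed. Between 10.3% and 49.7% of a library's nuclei outside the oligodendrocyte-lineage gate scored within 0.25 of a gate limit. In the CGE gate, 44 of 786 nuclei of cortex replicate 1 and 151 of 672 of cortex replicate 2 had no cut site in *Adarb2*, *Vip* or *Lamp5*. The hippocampus libraries had 0 such nuclei, and the MGE gate had 0 without a cut site in its own genes. The 7 MGE genes that the gates did not use, of which 2 had no common region and counted nothing, had 470 to 851 summed CPM in the MGE gate. In the CGE gate they had 392 to 613, and they were higher in the MGE gate in each library. The 7 such CGE genes had 143 to 224 in the MGE gate and 190 to 355 in the CGE gate, again higher in their own gate in each library. The oligodendrocyte-lineage gate was drawn from its own 9 lineage genes and the GABAergic genes, so their sums describe that gate and do not check it. In it the GABAergic genes still had 483 to 772 CPM, against 1197 to 1762 in the MGE gate, and the 9 lineage genes had 566 to 835 against 184 to 260. Of these 9, *Mog*, *Mag*, *Mobp* and *Olig2* had no common region and so counted nothing in the sums.

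In sums over common regions, the tissue difference of each gene was present in the MGE, CGE and mixed gates alike. In the MGE gate *Hr* had 62.7 and 60.3 CPM in cortex and 27.6 and 26.8 in hippocampus, and in the CGE gate 65.6 and 65.1 against 31.1 and 25.8. *P2rx7* had 53.1 and 47.3 against 25.2 and 21.2 in the MGE gate and 37.5 and 38.0 against 18.5 and 17.3 in the CGE gate. *Tspan32* had 19.4 and 24.9 against 48.6 and 46.9 in the MGE gate and 43.2 and 27.5 against 61.99 and 52.4 in the CGE gate. For *Pgf* the values were 20.6 and 22.4 against 45.9 and 46.4 in the MGE gate and 25.3 and 28.2 against 51.5 and 50.2 in the CGE gate. Over the 4 genes and 4 gates, the libraries of the tissues did not overlap in 15 of 16 cases, each in the gene's own direction. Such separation was found for 29.7% of all tested genes in the MGE gate, 28.9% in the CGE gate, 26.8% in the mixed gate and 34.4% in the oligodendrocyte-lineage gate, and the genes were chosen for it. In regions at least 50% covered, which remained for *Hr* and *Pgf* only, 3 of 8 cases separated in the gene's own direction. For *Pgf* only region 1 remained, with log2 ratios of -0.28, -0.16, -0.78 and 0.084 in the MGE, CGE, mixed and oligodendrocyte-lineage gates. Region 2 of *Pgf*, which that setting dropped, had 1.86, 1.44, 1.83 and 0.83 in the same gates.

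The exception was *Hr* in the oligodendrocyte-lineage gate, with 90.2 and 63.1 CPM in cortex and 49.1 and 80.8 in hippocampus, where the tissues overlapped.

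**Figure D2:**
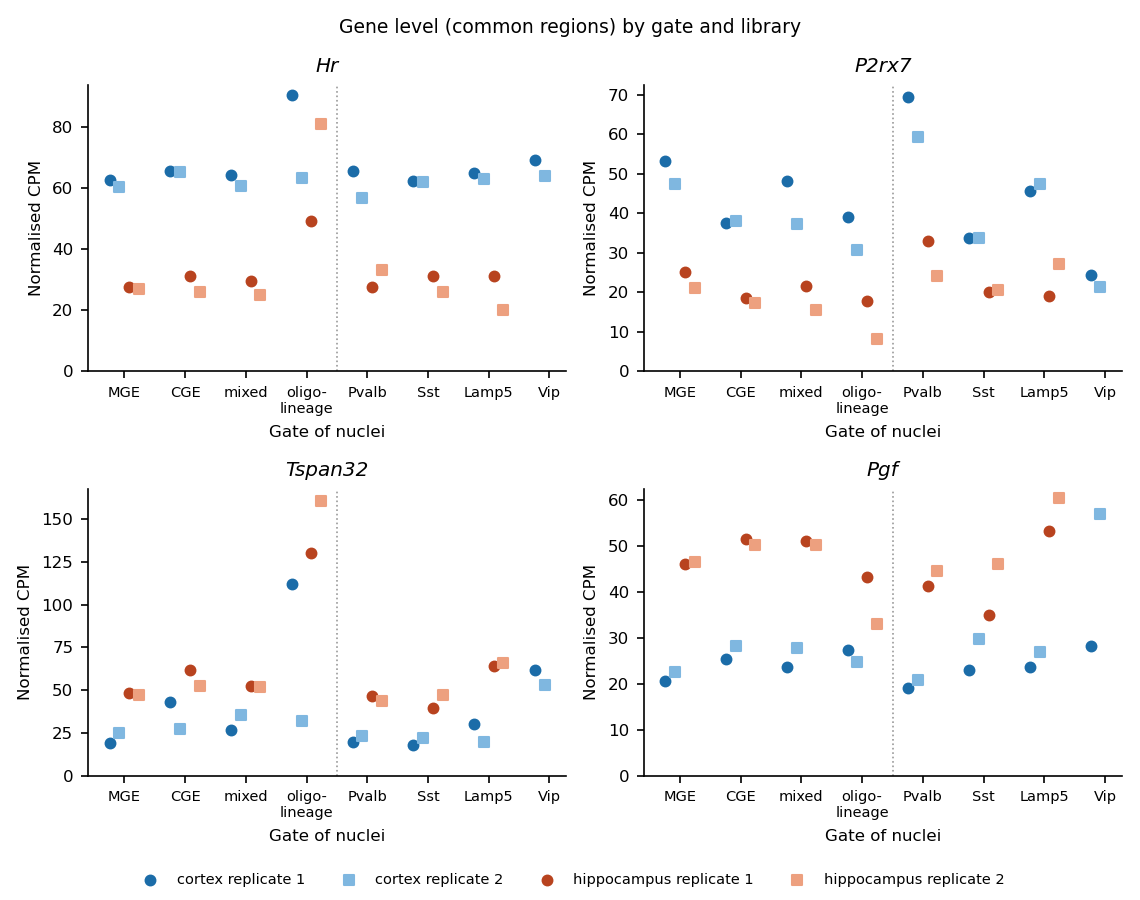
Level of each gene in normalised CPM (vertical axis) by gate of nuclei (horizontal axis), 1 point per library (blue, cortex; orange, hippocampus; circle, replicate 1; square, replicate 2), with the subdivided gates right of the dotted line and no hippocampus value for Vip. In the MGE gate Hr lies between 60.3 and 62.7 in cortex and between 26.8 and 27.6 in hippocampus, and in the oligodendrocyte-lineage gate the tissues overlap.

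The difference was next split into a part from the shares of cut sites that the 4 gates took and a part from levels within gates, over the 4 pairs of a hippocampus and a cortex library. For *Hr*, -33.2 of -32.6 CPM lay within gates and 0.647 came from shares. For *P2rx7*, levels within gates gave 100.0% of the difference of -23.5 CPM, with a range of 96.9% to 104% over the pairs of libraries. For *Pgf* the share within gates was 100.2% of 23.5 CPM (range 99.1% to 101%). *Tspan32* varied the most, with 95.8% of 28.5 CPM within gates and a range of 79.7% to 108%. Of its within-gate difference, 6.39 CPM came from the oligodendrocyte-lineage gate, against 0.916 CPM for *Pgf*. The split is of the sums over common regions, in which *Tspan32* and *Pgf* lean to hippocampus, and it was not made with covered length as an offset, where their log2 differences were -0.32 and -0.54. Where a gene's level is close across gates, the part from shares is small whatever the shares are. Gates that mix kinds of nuclei bring levels closer, and the split cannot see the mix of nuclei inside a gate. The part of that mix in the tissue difference was not tested.

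**Figure D3:**
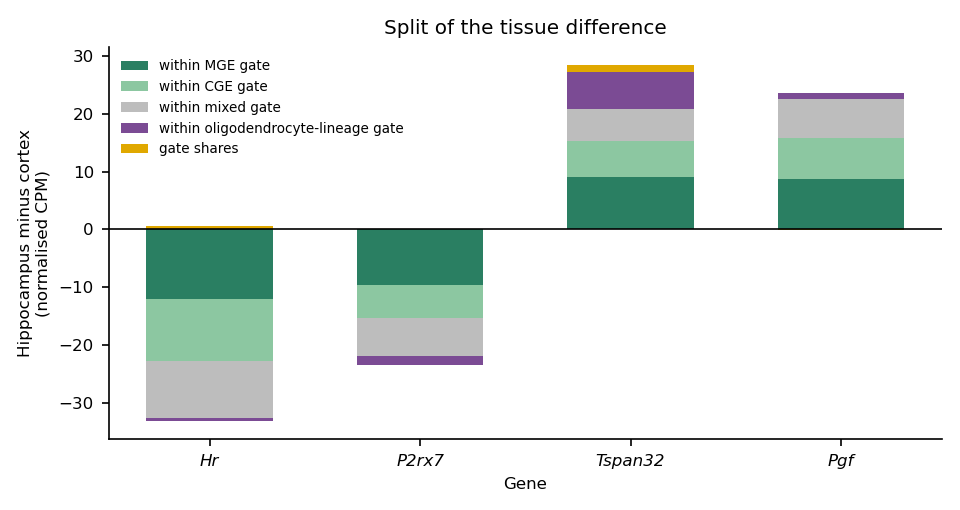
Hippocampus minus cortex in normalised CPM (vertical axis) for each gene, stacked by the part within each of the 4 gates and the part from gate shares. The part from shares is 0.647 CPM for Hr and 1.21 CPM for Tspan32, small beside the parts within gates.

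Of the 4 gates, the shares of nuclei in the MGE, CGE and mixed gates overlapped between the tissues, and those in the oligodendrocyte-lineage gate did not. The latter took 8.95% ± 4.07 of cortex and 14.3% ± 0.662 of hippocampus nuclei (SD, n = 2 each), a difference of 5.30 points. An exact permutation test over libraries, two-sided, gave p = 0.33, the smallest that 2 against 2 libraries allow, and p = 1 for the MGE, CGE and mixed gates. The MGE gate held 31.4% ± 12.8 of cortex and 29.9% ± 0.197 of hippocampus nuclei.

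Whether the difference was larger in one gate was tested as an interaction over all genes. Between the MGE and CGE gates the log2 difference of differences was 0.02 ± 0.26 (SE) for *Hr*, -0.04 ± 0.25 for *P2rx7*, 0.46 ± 0.46 for *Tspan32* and 0.18 ± 0.18 for *Pgf*, with an adjusted p of 0.999985 for each, and 0.0% of genes were called. DESeq2 also called 0, and 144 genes had an unadjusted p below 0.05 in edgeR. For the oligodendrocyte-lineage gate against the mean of the MGE and CGE gates, an interaction added after the data were seen, *Hr* had 0.93 ± 0.24 (adjusted p = 0.204) and *Pgf* -0.49 ± 0.19 (adjusted p = 0.263), with 0.0% of genes called (67 by DESeq2, and 2490 with an unadjusted p below 0.05 in edgeR). The smaller tissue difference of *Hr* in that gate thus did not pass the test over all genes.

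Within a library, levels in different gates share the same peaks, so that both sides of a ratio were counted over the same length. Peaks still differed between libraries, so each library's gates and ratios rest on its own peaks. Comparisons between gates did not use the contrast by which the genes were chosen. *P2rx7* and *Tspan32* passed a test between interneuron gates in at least 1 such comparison, and *Hr* and *Pgf* passed none of them.

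*P2rx7* was higher in the Pvalb gate than in the Sst gate in 4 of 4 libraries. The Pvalb gate had 69.5 and 59.3 CPM in cortex and 32.9 and 24.3 in hippocampus, and the Sst gate 33.8 and 33.9 in cortex and 20.01 and 20.6 in hippocampus, so the ratio ran from 1.18 to 2.06. The log2 difference was 0.79 ± 0.15 (SE, adjusted p = 0.000159 over 14644 genes), in a comparison that called 7.73% of genes, with 4.23% of all tested genes higher and 3.5% lower in the Pvalb gate. Without cortex replicate 1 the adjusted p was 0.0609, and with nuclei thinned to 5000 cut sites it was 0.111, at log2 differences of 0.62 and 0.87. Thinning kept only nuclei of at least 5000 cut sites and drew the gates again from the thinned counts. Median depth per nucleus was close in both gates, for example 54831 and 50647 cut sites in cortex replicate 1.

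That difference lay in region 2 of *P2rx7*, the site whose central bases are printed above. The region had 60.7 and 57.1 CPM in the Pvalb gate of the cortex libraries and 30.1 and 18.4 in hippocampus, against 28.04, 29.8, 13.0 and 15.5 in the Sst gate. Its log2 difference was 0.95 ± 0.17 (adjusted p = 4.9e-05), where 14.4% of 46690 regions were called. Region 1, at the start of the gene, had a log2 difference of -0.15 ± 0.36 (adjusted p = 0.873). *Hr* (0.04 ± 0.13), *Tspan32* (0.11 ± 0.14) and *Pgf* (-0.13 ± 0.15) did not pass the test between the Pvalb and Sst gates. The tissue difference of *P2rx7* was not shown to differ between these gates, with an interaction, added after the data were seen, of -0.43 ± 0.29 (adjusted p = 0.936), where 9 of 14633 genes (0.0615%) were called.

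Over the whole MGE and CGE gates, *P2rx7* was higher in the MGE gate in 4 of 4 libraries, by a log2 difference of 0.41 ± 0.13, with an adjusted p of 0.217 that did not pass. With gates drawn from the whole lists of 10 MGE and 10 CGE genes it passed, at 0.59 (adjusted p = 0.0415). The comparison called 0.539% of genes, and *Hr* (-0.06 ± 0.19), *Tspan32* (-0.45 ± 0.23) and *Pgf* (-0.20 ± 0.11) did not pass either. Of the 8 regions, 0 were called between the MGE and CGE gates by edgeR and by DESeq2, where edgeR called 9.31% of 46697 regions. Region 3 of *Tspan32* had the largest difference, -1.31 ± 0.46 (adjusted p = 0.111), and without cortex replicate 2 it passed (-1.56, adjusted p = 0.00942). Without hippocampus replicate 2, region 2 of *P2rx7* passed (0.47, adjusted p = 0.0454).

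Between the Vip and Lamp5 gates, *P2rx7* and *Tspan32* went opposite ways in the 2 cortex libraries, the only ones with both gates. The fit used the Pvalb, Sst, Lamp5 and Vip gates of all 4 libraries. The hippocampus libraries, without a Vip gate, thus also entered its estimates and adjusted p values. *P2rx7* had 24.3 and 21.3 CPM in the Vip gate and 45.6 and 47.5 in the Lamp5 gate of cortex replicates 1 and 2, a log2 difference of -0.96 ± 0.23 (adjusted p = 0.00776). *Tspan32* had 61.9 and 53.3 against 30.1 and 19.7, a log2 difference of 1.11 ± 0.19 (adjusted p = 0.000136). The comparison called 4.11% of 14644 genes, and *Hr* and *Pgf* did not pass. In cortex replicate 2 the Vip gate had 40 nuclei, with 6 cut sites in *P2rx7* and 15 in *Tspan32*. Without cortex replicate 1 neither gene passed, at log2 differences of -1.08 for *P2rx7* (adjusted p = 0.351) and 0.95 for *Tspan32* (0.287). The Vip gate then had 1 library, assumed to vary like the other gates and libraries of the fit. With thinned nuclei the differences were -1.40 (0.440) and 0.80 (0.711), and with gates from the whole lists *P2rx7* had -0.80 (0.0972).

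The oligodendrocyte-lineage gate separated 3 of the 4 genes from the mean of the MGE and CGE gates, in a comparison that called 42.7% of all genes (20.3% higher and 22.4% lower), so that being called there is common. *Tspan32* was the highest above it, with 112, 31.8, 130 and 161 CPM in the order cortex replicates 1 and 2, hippocampus replicates 1 and 2, which were 3.59, 1.21, 2.36 and 3.24 times the mean of the MGE and CGE gates. Its log2 difference was 1.31 ± 0.20 (SE, adjusted p = 0.00144). Cortex replicate 2 had by far the smallest ratio. Nuclei in the oligodendrocyte-lineage gate were shallower than those in the MGE and CGE gates in each library. Their median depth was 25902, 7014.5, 4366 and 9399 cut sites in the same order of libraries. Median depth was 51090, 8783.5, 15135 and 17191 in the MGE gate, and 43593, 9693.5, 13371 and 16027 in the CGE gate. Thinning to 5000 cut sites left 3012 genes called. It dropped nuclei below 5000 cut sites, a limit above the median of this gate in hippocampus replicate 1, and drew the gates again. It thus changed the nuclei as well as their depth, and the part of depth in this comparison was otherwise not tested.

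*Hr* was higher as well, by 0.66 ± 0.18 (adjusted p = 0.0135), with ratios of 1.41, 1.01, 1.68 and 3.08 in the same order. The excess was thus absent in cortex replicate 2 and largest in hippocampus replicate 2. *P2rx7* was lower in 4 of 4 libraries, with ratios from 0.422 to 0.860 and a log2 difference of -0.54 ± 0.14 (adjusted p = 0.00988). *Pgf* did not pass, at -0.21 ± 0.12 (adjusted p = 0.158). Without hippocampus replicate 1, *Hr* and *P2rx7* no longer passed, at log2 differences of 0.66 (adjusted p = 0.0767) and -0.60 (0.0558). With thinned nuclei *Hr* did not pass, at 0.74 (0.0643).

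By region, 5 of 8 were called in the oligodendrocyte-lineage comparison, where 33.5% of 46697 regions were. All 3 regions of *Tspan32* were higher, by log2 differences of 0.88 ± 0.19, 1.67 ± 0.26 and 2.46 ± 0.38 along the gene (adjusted p = 0.00428, 0.000616 and 0.000996). Region 3, the one furthest into the gene, had 31.9, 5.65, 42.6 and 63.5 CPM in the oligodendrocyte-lineage gate and 1.01, 3.66, 5.84 and 10.2 in the MGE gate. The region of *Hr* was higher by 0.94 ± 0.22 (adjusted p = 0.00743) and region 2 of *P2rx7* lower by -0.60 ± 0.18 (adjusted p = 0.0207). Neither region of *Pgf* passed. Region 2 of *P2rx7* lost its call without cortex replicate 1 (adjusted p = 0.0551), hippocampus replicate 1 (0.0746) or hippocampus replicate 2 (0.0685), the region of *Hr* without hippocampus replicate 1 (0.0565) and region 1 of *Tspan32* without hippocampus replicate 2 (0.0612).

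**Figure D4:**
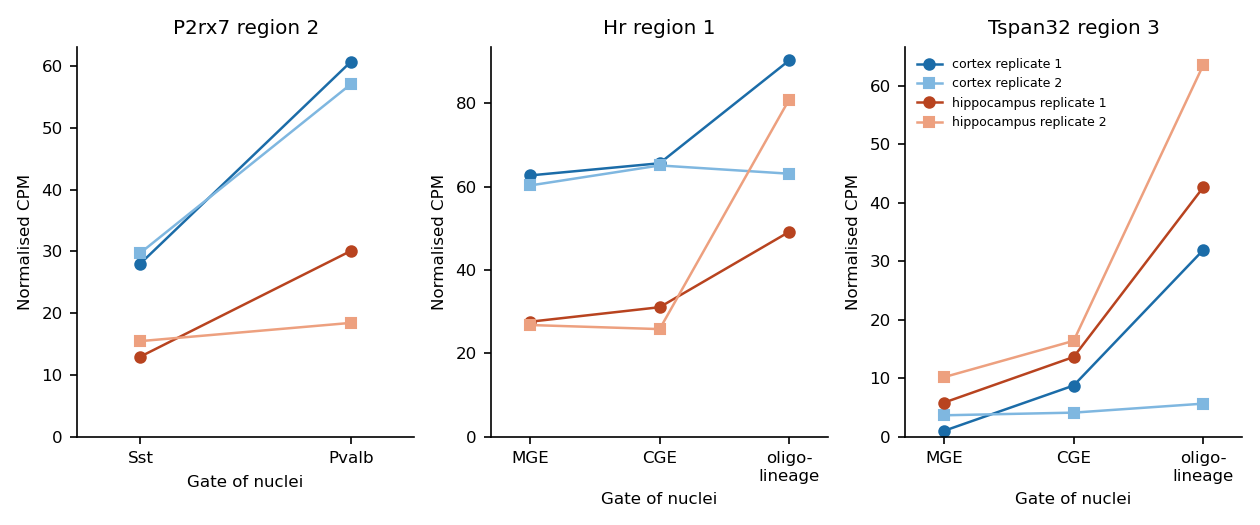
Normalised CPM (vertical axis) of 3 regions by gate of nuclei (horizontal axis), 1 line per library (blue, cortex; orange, hippocampus; circle, replicate 1; square, replicate 2). P2rx7 region 2 is higher in the Pvalb gate in each library, and Tspan32 region 3 is higher in the oligodendrocyte-lineage gate than in the MGE and CGE gates in each library, least so in cortex replicate 2 with 5.65 CPM against 3.66 and 4.12.

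The levels of each gene across gates are given as means over 4 libraries for the gates present in each library. The Vip gate, present in cortex only, is left out of this order. The SDs include the difference between the tissues, so that they cannot show whether gates differ, and the tests within libraries given before serve for that. *P2rx7* ran from 46.5 ± 21.4 CPM (SD over 4 libraries) in the Pvalb gate through 34.9 ± 13.9 in the Lamp5 gate and 27.1 ± 7.80 in the Sst gate to 23.9 ± 13.6 in the oligodendrocyte-lineage gate. *Tspan32* ran from 109 ± 55.0 in the oligodendrocyte-lineage gate to 31.7 ± 14.04 in the Sst gate, with 33.4 ± 13.8 in the Pvalb gate, and the test between Pvalb and Sst was not passed (adjusted p = 0.777). *Hr* had 70.8 ± 18.3 in the oligodendrocyte-lineage gate and 42.4 to 47.4 in the other gates present in 4 libraries, between which it passed no test. *Pgf* had its mean between 31.4 and 41.0 in all gates present in 4 libraries.

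Other genes with the most similar pattern across 30 sums of a library and a gate, each centred on its library's mean, are given with Pearson's r as a description, since the sums of a library share its depth and its peaks. For *Hr* these were *Enpp6* (r = 0.911), *Serinc5* (0.904) and *Ccdc163* (0.903), and for *Tspan32* they were *Tppp3* (0.953), *Rapgef3* (0.946) and *Plekhf1* (0.925). *P2rx7* was most like *Syt2* (0.872), a synaptotagmin gene, *Ank1* (0.864) and *Tmem132c* (0.860). *Pgf* was most like *Amer2* (0.849), *March9* (0.833) and *Cdk8* (0.828), out of 12326 genes.

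In the pathways around the 4 genes, no listed gene was called between the tissues by edgeR, as was no gene of all 14645. Between the Pvalb and Sst gates, where 4.23% of all tested genes were higher and 3.5% lower, 2 of 15 tested purinergic genes rose in the Pvalb gate, *P2rx1*, another ATP-gated channel (0.41 ± 0.13, adjusted p = 0.0422), and *Nt5e*, the ectonucleotidase that makes adenosine (0.46 ± 0.11, adjusted p = 0.00475). In the thyroid hormone and corepressor list, with 17 genes tested, the receptor gene *Rora* was higher there (0.42 ± 0.07, adjusted p = 2.41e-05). Of 20 tetraspanins, 3 were higher (*Tspan2*, *Tspan9* and *Tspan11*) and 1 lower (*Tspan17*), and of 9 VEGF genes 1 was lower, the guidance ligand gene *Sema3a* (-0.76 ± 0.17, adjusted p = 0.00182). Median log2 differences of the lists in this comparison lay between 0.01 and 0.12, against -8.33e-05 over all genes. In the interaction of the Pvalb gate and tissue, *Adora1* (1.04 ± 0.23) and *Tspan9* (-0.56 ± 0.12) were the listed genes that passed, and 0 genes were called there without hippocampus replicate 1, without hippocampus replicate 2 or with thinned nuclei.

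In the oligodendrocyte-lineage gate, where 20.3% of all tested genes were higher and 22.4% lower, 7 of 20 tetraspanin genes were higher and 4 lower. *Cd9*, a tetraspanin of myelinating cells, had the largest difference (4.04 ± 0.25, adjusted p = 1.06e-05), followed by *Tspan14* (1.27 ± 0.15) and *Cd63* (1.17 ± 0.20). The median of the list was -0.11, against -0.01 over all genes. Of 15 purinergic genes 2 were higher, among them the adenosine receptor gene *Adora1* (0.68 ± 0.13, adjusted p = 0.00351), and 5 lower. Of 9 VEGF genes 0 were higher and 4 lower, *Vegfa*, *Vegfb*, *Vegfc* and the coreceptor gene *Nrp1* (-0.57 ± 0.15, adjusted p = 0.0111). For thyroid hormone and corepressors, 5 of 17 were higher and 6 lower, with the receptor gene *Thra* higher (0.47 ± 0.08, adjusted p = 0.00269) and *Thrb* lower (-0.21 ± 0.07, adjusted p = 0.0270).

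Markers of other cells were measured beside the tissue difference. The excitatory list, in which 4 of 6 genes had no common region, had 41.9 to 60.6 summed CPM in cortex and 34.1 to 35.8 in hippocampus. That list was lower in hippocampus in each gate, as was *P2rx7*, whereas *Hr* overlapped between the tissues in the oligodendrocyte-lineage gate. The astrocyte list, with 2 of 6 genes at 0, had 145 to 146 in cortex and 152 to 164 in hippocampus over all nuclei. It overlapped between the tissues in the CGE gate (149 to 166 and 152 to 166) and the mixed gate (137 to 154 and 151 to 156), where *Tspan32* and *Pgf* did not. In the MGE gate (137 to 138 and 155 to 167) and the oligodendrocyte-lineage gate (123 to 125 and 138 to 164) it did not overlap. There it was higher in hippocampus, as were *Tspan32* and *Pgf*. Over all nuclei, the microglial (255 to 288 and 242 to 277), endothelial (63.5 to 78.4 and 71.8 to 86.5), striatal (136 to 194 and 143 to 163) and oligodendrocyte-lineage lists (220 to 258 and 230 to 269) overlapped between the tissues. The part of these lists in the tissue difference was not tested. In sums over nuclei, fewer nuclei of a kind and fewer cut sites per nucleus of that kind cannot be told apart.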

How the data were processed

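Single-nucleus ATAC-seq of 4 libraries was analysed. Per the labels' processing notes the authors used Cell Ranger ATAC 1.2.0 with GRCm38 (mm10). The deposited matrices hold raw counts of cut sites per peak and nucleus, with peaks called per library by the authors. Counts were summed by gene (GENCODE M21) or common region (peaks merged at an overlap of 1 bp) over the nuclei of a library or gate. A score was log2((observed + 1)/(expected from depth + 1)). The MGE gate needed a difference of scores above 0.5, the CGE gate below -0.5, and the oligodendrocyte-lineage gate above 1.5.

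Gates were compared with edgeR 4.0.16 (quasi-likelihood test, two-sided, TMM, filterByExpr, library as block, Benjamini-Hochberg adjustment), DESeq2 1.42.0 being an alternative. Values of genes are sums over common regions, and fold changes are edgeR estimates. On simulated counts for the Pvalb and Sst gates (14644 genes), 100 of 100 genes changed 2-fold were called, against 91 for Vip and Lamp5 (14644 genes), 86 for the MGE and CGE interaction and 78 for the oligodendrocyte-lineage interaction with tissue (14645 genes each), and 77 for that of the Pvalb gate (14633 genes). The simulation gave all genes of a comparison the same dispersion and held no library or tissue effect. It checks the fits and cannot show how many such genes would be called in the data. No doublet caller was run, and nuclei were those deposited. The motif matrices were not used. Libraries of the same replicate number did not deviate together over genes (r = -0.11), which cannot show whether they shared animals. The paper read for style describes another experiment. The 4 genes, lists and gates were chosen with earlier results of these data known. Genes named were the 4 genes, gate genes, neighbours within 100 kb, the 3 most alike genes (at least 20 mean CPM, log2(CPM + 2)) and list members that passed a test. 1 listed gene is not reported here.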

Additional observations from a re-analysis of the deposited data

How the results depend on the processing

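The direction of the tissue difference of *Hr* held under each alternative run. *P2rx7* kept its direction in each run that measured it, and it had no region at least 50% covered. *Tspan32* and *Pgf* turned to log2 values of -0.32 and -0.54 with covered length as an offset. In regions at least 50% covered *Pgf* had -0.31, from region 1 alone, which leaned to cortex in the main run as well. That region had -0.28, -0.16, -0.78 and 0.084 in the MGE, CGE, mixed and oligodendrocyte-lineage gates. The setting of at least 50% coverage left 8 gene and gate pairs, of which 3 did not overlap between tissues in the gene's own direction. Genes called between the tissues numbered 21 with DESeq2, 1 with all peaks, and from 0 to 330 leaving out a library (330 without cortex replicate 1, 46 without cortex replicate 2). Between the MGE and CGE gates 360 genes were called by DESeq2, 263 with a gate limit of 1, 373 with gates from whole lists, 9 after thinning, and from 0 to 334 leaving out a library (0 without hippocampus replicate 1, 4 without cortex replicate 1, 334 without cortex replicate 2). Regions called there ranged from 237 to 4731, and *P2rx7* region 1 from -0.084 to 0.090. Thinning gave 3012 genes for the oligodendrocyte-lineage gate, 130 for Pvalb against Sst and 29 for Vip against Lamp5, which had 365 with whole lists. Leaving out a library gave ranges of 1916 to 7919, 442 to 1332 and 384 to 700 genes for these, and 3998 to 21590 and 2449 to 6757 regions for the first and the second. The oligodendrocyte-lineage interaction with tissue called 67 genes by DESeq2 and 0 to 957 leaving out a library (957 without cortex replicate 1, where *Tspan32* passed at 1.14, adjusted p = 0.0405), and that of the Pvalb gate 1 by DESeq2, 3 with whole lists, 0 after thinning and 0 to 31. The cause was not tested.

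Values that changed sign were small or did not pass. After thinning these were *Tspan32* at -0.082 in the oligodendrocyte-lineage interaction, *P2rx7* at 0.43 and *Tspan32* at 0.066 in the Pvalb interaction, *Hr* at -0.15 and *Tspan32* at -0.22 between Pvalb and Sst, *Hr* at -0.53 and *Pgf* at -0.037 between Vip and Lamp5, and *Pgf* at -0.13 in the MGE and CGE interaction. In that interaction *Hr* had -0.00067 and *P2rx7* 0.067 with a gate limit of 1, and *Hr* -0.060 and *P2rx7* 0.22 with whole lists, where *Tspan32* had 0.071 in the Pvalb interaction. Leaving out a library gave *Hr* -0.083 to 0.15, *P2rx7* -0.12 to 0.053 and *Tspan32* -0.12 to 0.90 in the MGE and CGE interaction, *P2rx7* -0.997 to 0.036 and *Tspan32* -0.44 to 1.14 in the oligodendrocyte-lineage interaction, and *Hr* -0.14 to 0.38 and *Tspan32* -0.23 to 0.14 in the Pvalb interaction. Between Pvalb and Sst it gave *Hr* -0.042 to 0.095, its region -0.054 to 0.086 and *P2rx7* region 1 -0.69 to 0.19, and *Pgf* region 2 had -0.26 to 0.14 in the oligodendrocyte-lineage gate. The share of the *Pgf* difference within gates was 99.0% with whole lists and 99.2% after thinning, and that of *P2rx7* 97.1% to 104% leaving out a library. The oligodendrocyte-lineage share differed by 2.03 points after thinning.

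With the replicate number as a block, 0 genes were called between the tissues and 0 in the MGE and CGE interaction, so the block changed no call. Same-numbered libraries did not deviate together (r = -0.11 over 14645 genes), and with the pairing crossed 201 genes were called. Depth and peak length, both lowest in cortex replicate 2, limit what its gates and regions can show, and the Vip gate there rests on 40 nuclei.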
